A study of Mus musculus with 6 samples.

Results

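The galectin family was followed in embryonic mouse hearts with and without Arid3b, a transcription factor of the ARID family. Its 9 genes were Lgals1, Lgals2, Lgals3, Lgals4, Lgals7, Lgals8, Lgals9, Lgals12 and Lgals3bp, and they were found by matching the RefSeq accession that the array gives for each probe. They held 12 of the 39429 non-control probes, and 6 of the genes were among the 21800 entries tested. The family was chosen by measured values, namely the null against wild-type differences of these same arrays, which were already known, so the members' differences are given as a description with no p-value, and nothing is supported with them. RNA was measured on 6 single-colour Agilent arrays at embryonic day 9.5 (E9.5), 3 of wild-type and 3 of Arid3b-null pools, each pool holding 4 embryos. The dissected piece was the heart tube together with the pharyngeal mesoderm and endoderm under it. The null allele, the strain and the litters are not given in the sources used here. Nothing says that the pools came from separate litters, and the spread between them may be partly technical.

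Galectins are small lectins that bind beta-galactoside sugars through a conserved carbohydrate recognition domain. They are made in the cytosol without a signal peptide and leave the cell by an unconventional route, so that they act both on glycoproteins at the cell surface and in the matrix and on partners inside the cell. The prototype members (Lgals1, Lgals2 and Lgals7) carry 1 recognition domain and can pair up, the chimera Lgals3 adds a long proline- and glycine-rich tail through which it forms oligomers, and the tandem-repeat members (Lgals4, Lgals8, Lgals9 and Lgals12) join a pair of domains by a linker. Lgals3bp is no galectin but a secreted glycoprotein that binds galectin-3.

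The signal of each array was put on the log2 scale and its 75th percentile subtracted, so a value of 0 is the 75th percentile of that array. Values of different probes are not comparable with each other. Between 27136 and 31039 of 43020 spots per array were well above background and 0 were saturated. Each of the 3 slides held 1 wild-type and 1 null array, with the null array always in the same place, so place on the slide and genotype cannot be told apart. The brightest Arid3b probe read 2.91, 3.40 and 3.69 in wild-type pools 1, 2 and 3 and 1.08, 0.52 and 0.45 in the null pools. All 12 cardiomyocyte markers were measured, and 0 of them were called, where 10.5% of all entries tested were. Their summed signal was 1568 to 1816 in wild-type and 1576 to 1964 in null pools, in units of each array's 75th percentile.

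In the null hearts Lgals3 stood far above its wild-type level, 1 of the 2 Lgals3bp probes read about 1 log2 unit higher, and the other tested members did not pass the test. Of the 6 members tested, 2 rose and 0 fell at an adjusted p under 0.05 in limma. Over all entries tested, 10.5% were called, 6.64% higher and 3.81% lower in the null pools. For 4 of the 6 members the groups did not overlap and the null pools were higher, against 18.0% of all entries (32.9% counting both directions), and these shares are not read further because the family was picked for this contrast. All 6 differences were above 0, as were 52.6% of those of all entries. The median difference of the 6 was 0.83, beside 0.03 over all entries. By probe, 2 of the 9 kept probes of the family were called, both higher, where 6.43% of all kept probes were called higher and 10.2% in either direction. Of the 9, 6 had all null pools above all wild-type pools, where 17.9% of all kept probes did.

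**Figure D1:**
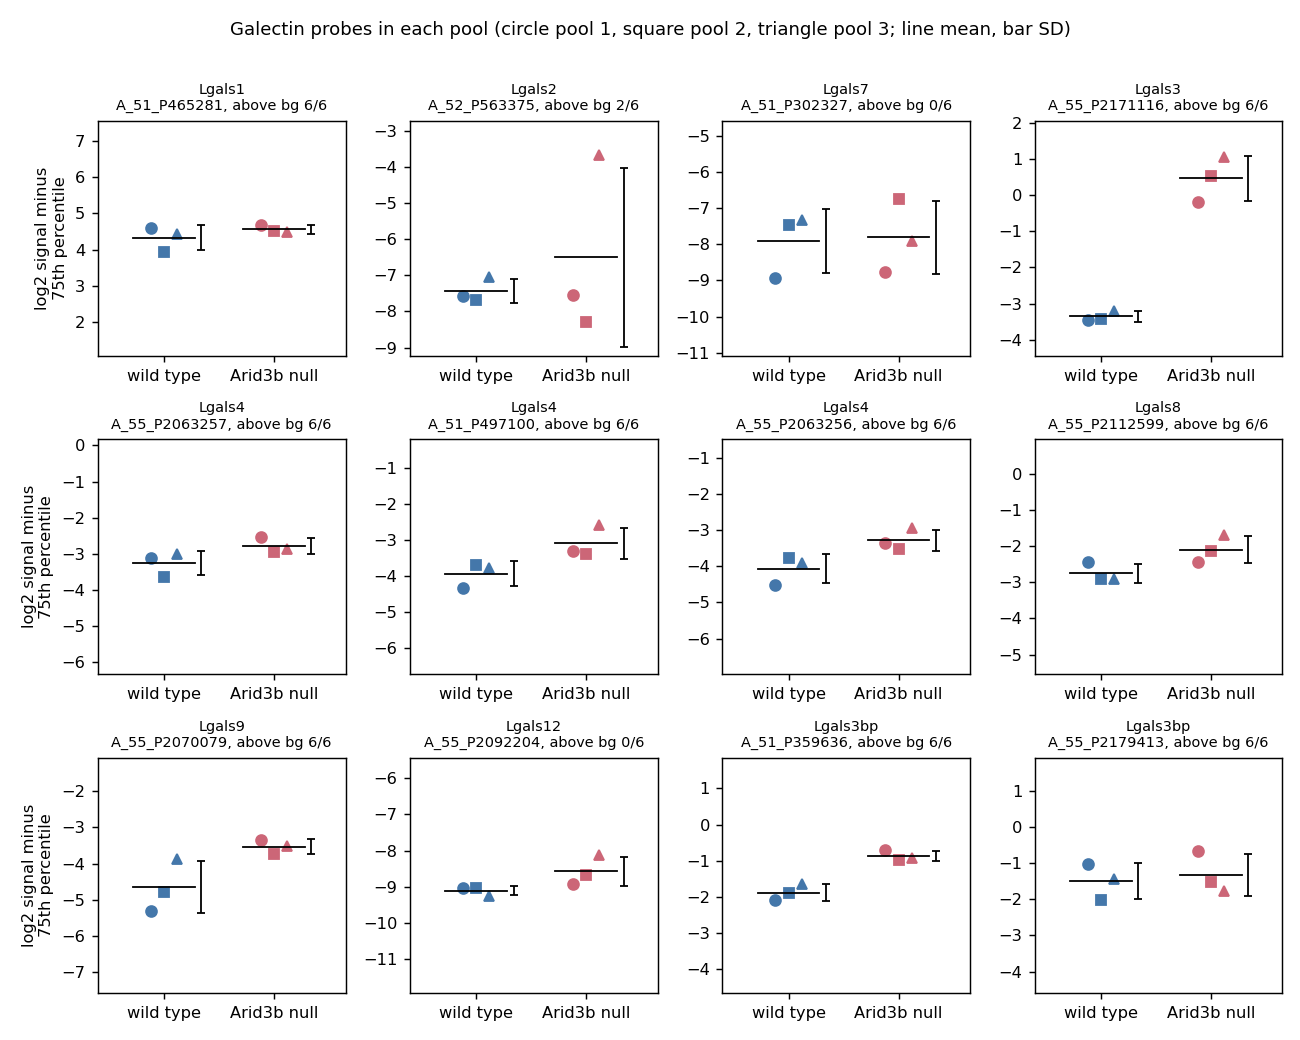
Log2 signal minus the array's 75th percentile (y axis, each panel spanning the same range) for the 12 probes of the galectin family in the 3 wild-type (blue) and 3 Arid3b-null (red) pools, with the mean as a line and the SD as a bar. Titles give the probe and on how many of 6 arrays it was well above background. Lgals3 is the panel with the widest gap between the groups, from -3.36 to 0.46, and Lgals2 is high in null pool 3 only.

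Lgals3, known as Mac-2 on macrophages and found in many epithelia, had 1 probe, A_55_P2171116. It read -3.45 and -3.42 in wild-type pools 1 and 2, and wild-type pool 3 was the highest of that group at -3.20. In null pools 1, 2 and 3 it read -0.19, 0.53 and 1.06. Every null pool lay above every wild-type pool, and null pool 1 was the lowest of the null pools. The means were -3.36 ± 0.14 and 0.46 ± 0.63 (SD, n = 3 pools each), a difference of 3.82 log2 units (SE 0.31) or 14.1-fold. Within slides 1, 2 and 3 the null array was higher by 3.26, 3.95 and 4.25. Of all entries, 15 had a larger fitted rise. Without any scaling the processed signal was 66.2, 70.6 and 125 in the wild-type pools and 622, 903 and 1079 in the null pools. Background is already subtracted from these values, and the local background was between 39 and 46. On this unscaled signal Lgals3 was the only one of the 6 tested members whose groups did not overlap, while 3.55% of all entries had null pools above wild-type pools without overlap. Lgals3 was called under all 15 alternatives, with differences from 3.05 (normexp background correction) to 4.15 (without null pool 1).

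**Figure D2:**
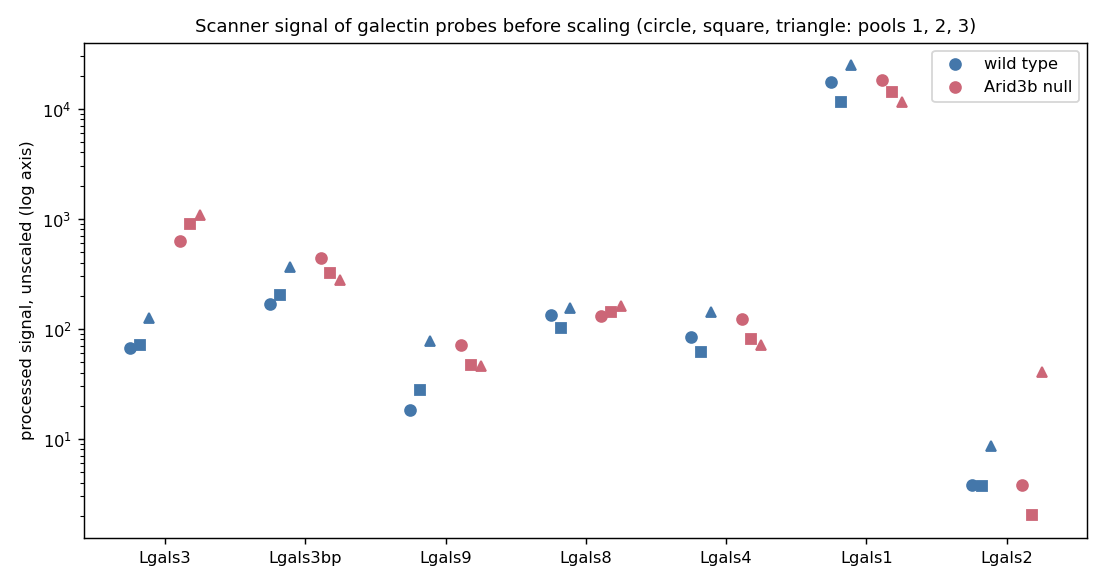
Processed scanner signal before any scaling (y axis, log scale) for 1 probe each of 7 genes of the galectin family in the wild-type (blue) and Arid3b-null (red) pools. The 3 null pools of Lgals3 sit between 622 and 1079, all above the wild-type pools at 66.2 to 125, and for the other genes the groups overlap.

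Lgals3bp, the secreted partner of galectin-3, had 2 probes that gave different pictures. Probe A_51_P359636 stood for the gene because it was by a small margin the brighter over all 6 arrays. In the wild-type pools alone the other probe was brighter, with a mean of -1.49 against -1.88. The choice of probe thus rested on the null pools. Probe A_51_P359636 read -2.10, -1.90 and -1.64 in the wild-type pools and -0.71, -0.97 and -0.91 in the null pools. The groups did not overlap on it, and the difference was 1.02 (SE 0.18), a 2.02-fold rise. The other probe, A_55_P2179413, read -1.02, -2.02 and -1.44 across the wild-type pools, and the null pools gave -0.66, -1.53 and -1.76. Here the groups overlapped, and the difference was 0.18 (SE 0.35) with a within-slide value of -0.32 on slide 3. Both probes are annotated to the same transcript accession, and which of them follows the gene more closely was not tested. Lgals3bp lost its call with the mean of both probes (difference 0.60), with a block for slide, and when wild-type pool 2 or null pool 2 was left out (differences 1.01 and 1.07). It also lost it with no scaling between arrays, where its difference was 0.53.

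The upstream sequence of both called genes is shown because it is the DNA next to the start sites of the members that rose. Each sequence is the 250 bases before the start, 5′ to 3′ on the gene's strand, from RefSeq on build GRCm38.p6, with capitals marking each CG dinucleotide. The Lgals3 window is chr14:47373610-47373859 on the plus strand and the Lgals3bp window is chr11:118401960-118402209 on the minus strand.
Lgals3: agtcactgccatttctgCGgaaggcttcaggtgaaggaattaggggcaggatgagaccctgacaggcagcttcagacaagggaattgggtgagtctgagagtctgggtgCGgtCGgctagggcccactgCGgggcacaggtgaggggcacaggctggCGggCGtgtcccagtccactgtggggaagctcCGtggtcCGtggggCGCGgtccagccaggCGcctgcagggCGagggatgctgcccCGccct
Lgals3bp: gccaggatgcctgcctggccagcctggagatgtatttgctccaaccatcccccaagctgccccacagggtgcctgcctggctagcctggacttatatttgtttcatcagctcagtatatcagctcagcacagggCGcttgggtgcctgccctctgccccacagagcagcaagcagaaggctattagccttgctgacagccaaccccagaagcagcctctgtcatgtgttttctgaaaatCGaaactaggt
The Lgals3 window held 13 CG dinucleotides and 66% G and C, that of Lgals3bp 2 and 55.6%, while the medians over 32851 promoter windows of the same length were 6 and 52.4%. Upstream windows of 7 of the 9 members were in the reference table. They were searched on both strands for 4 motifs: ACGTG, the core of the hypoxia response element, present in 16.6% of all windows; TGANTCA, the AP-1 site, in 6.75%; TGATGNAA, a composite site of C/EBP and ATF factors, in 3.45%; and ATTAA, an AT-rich stretch, in 24.9%. No 2 of these motifs overlapped in a member's window. Lgals3bp held 1 match to the C/EBP and ATF site on the minus strand, from 150 to 143 bases before the start. Lgals2 and Lgals7 held 1 AT-rich match each, and the windows of Lgals3, Lgals4, Lgals8 and Lgals9 held none of the 4 motifs.

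Among the tandem-repeat galectins, Lgals9, a ligand of several immune and adhesion receptors, had the largest difference, but it did not pass. Its probe A_55_P2070079 read -5.31, -4.77 and -3.88 in the wild-type pools and -3.33, -3.75 and -3.50 in the null pools. The groups did not overlap, yet wild-type pool 3 lay close to the null pools, and the wild-type SD of 0.72 was larger than the null SD of 0.21. The difference was 1.13 (SE 0.35), and 1.98, 1.02 and 0.38 within slides 1, 2 and 3. The unscaled processed signal, with background already subtracted, was 18.2 to 77.6 in wild-type and 46.0 to 70.5 in null pools. Before subtraction the median spot signal was 64 to 124 and 89 to 108, on a local background of 42 to 48. Lgals9 passed without wild-type pool 3 (difference 1.52) and with normexp background correction (0.61).

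Lgals4, a galectin of the gut epithelium, had 3 probes, and none of them passed. The brightest, A_55_P2063257, read -3.12, -3.63 and -3.02 in the wild-type and -2.53, -2.94 and -2.86 in the null pools, a difference of 0.48 (SE 0.22). On this probe the highest wild-type and the lowest null pool were close together without overlapping. The other probes, A_51_P497100 and A_55_P2063256, differed by 0.84 (SE 0.27) and 0.79 (SE 0.25), also without overlap. With no scaling between arrays the difference of the brightest probe was -0.0010.

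Lgals8, which marks damaged vesicles inside cells and binds integrins outside them, read -2.45, -2.90 and -2.90 in the wild-type pools and -2.45, -2.15 and -1.70 in the null pools. Wild-type pool 1 and null pool 1 had nearly the same value, so the groups overlapped. The difference was 0.65 (SE 0.24) and did not pass. Lgals12, known from adipose tissue in adults, was below that mark on all 6 arrays, and no difference is given for it.

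**Figure D3:**
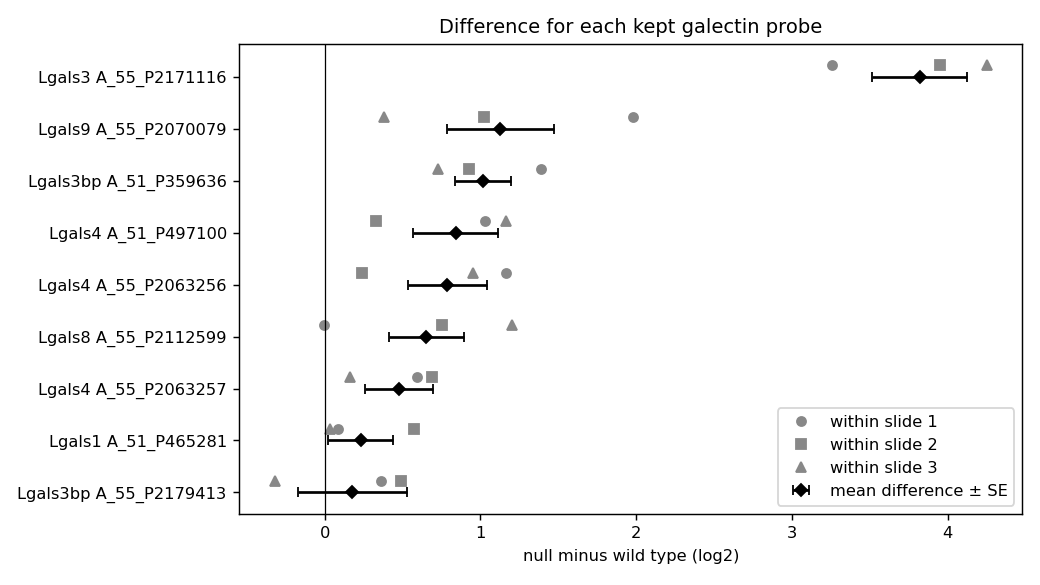
Null minus wild-type difference (x axis, log2 units) for the 9 probes of the galectin family kept in the test, with the mean difference and its SE from a fit over all kept probes in black and the difference within each of the 3 slides in grey. Lgals3 lies at 3.82, the Lgals3bp probes lie apart at 1.02 and 0.18, and the remaining probes fall between 0.23 and 1.13.

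Of the prototype galectins, Lgals1, which binds laminin, integrins and other matrix and surface glycoproteins, was well above background on every array, and its groups overlapped. It read 4.60, 3.93 and 4.44 in the wild-type pools and 4.69, 4.51 and 4.48 in the null pools. Wild-type pool 2 was the lowest, and the other 5 pools lay together. The difference was 0.23 (SE 0.21) and did not pass, and it was -0.25 with no scaling between arrays. The unscaled signal after background subtraction was between 11568 and 24826, and the local background was at most 47. Lgals7, a galectin of stratified epithelium, was not well above background on any array.

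Lgals2, best known from the gastrointestinal tract, was measured in 2 pools only and was not tested. It read -7.56, -7.68 and -7.05 in the wild-type pools and -7.55, -8.28 and -3.68 in the null pools, and only wild-type pool 3 and null pool 3 were well above background. Null pool 3 thus stood 3.37 log2 units above its slide neighbour, while null pools 1 and 2 were at the wild-type level. Null pool 3 also had the highest summed signal of the trophoblast and of the visceral endoderm and liver markers. For the visceral endoderm and liver markers the margin was small, with 6.25, 5.20 and 6.66 in null pools 1, 2 and 3. The placental lactogen Prl3d1 read -3.19, -2.99 and -3.30 in the wild-type pools and -3.20, -0.97 and 4.78 in null pools 1, 2 and 3. The apolipoprotein Apob was at -2.84 in null pool 3 and between -6.45 and -5.68 in the other 5 pools. Both genes were picked after their values were seen. The called markers of these lists differed in this. Afp read 1.24, -0.10 and 0.31 in null pools 1, 2 and 3. Hnf4a and Ascl2 were also not highest in null pool 3, and Rbp4 was. The part of such tissue in the Lgals2 value was not tested.

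Marker genes of other cells that can carry galectins moved to different degrees. The counts called in this paragraph and the next stand beside the 10.5% called over all entries. The share called was 15.4% of the macrophage, 20% of the trophoblast and of the notochord, and 16.7% of the stratified epithelium markers measured. It was 30% for visceral endoderm and liver and for pharyngeal endoderm. In the shortest lists 1 call already gave 16.7% or 20%. In bulk pools more cells of a type and more RNA per cell cannot be told apart. Of 13 measured macrophage markers, 2 rose, Fcer1g by 1.91 (SE 0.26, adjusted p = 0.00642 in limma) and Laptm5 by 1.81 (SE 0.35, adjusted p = 0.0213). Adgre1, Csf1r, Cx3cr1, Aif1, Tyrobp, Mrc1, Lyz2, C1qb, C1qc, Itgam and Cd14 were not called, and the difference of Lyz2 was -0.91. The summed signal of the 13 overlapped, with 6.83 to 13.0 in wild-type and 9.15 to 12.8 in null pools. Such sums weigh bright probes most, and Itgam and Csf1r made up most of this one. With each marker weighted equally, the mean log2 deviation from the wild-type means was -0.37 to 0.36 in wild-type pools. It was 0.34 to 0.56 in null pools, and the list median difference was 0.39. Spi1, which encodes a defining myeloid transcription factor, was above background on 0 arrays. All 14 megakaryocyte and platelet markers rose, among them the von Willebrand factor receptor chain Gp1ba by 2.65 (SE 0.16), with sums of 5.89 to 9.26 against 49.9 to 78.9. Of 5 measured trophoblast markers 1 rose, the transcription factor Ascl2 by 3.62 (SE 0.19), and 6 were above background on 0 arrays. Summed over the 4 trophoblast markers with a value on every array, the signal was 0.30 to 0.36 in wild-type pools and 1.15, 1.77 and 32.5 in null pools 1, 2 and 3. This sum leaves out Gcm1, the measured trophoblast marker with the highest wild-type readings, which had no value in null pool 1. Gcm1 read 3.23, 1.70 and 3.46 in wild-type pools and 4.62 and 4.75 in null pools 2 and 3, and it was not called. With Gcm1 counted, null pool 3 would stand out far less. The order of the null pools in that sum was the same for Lgals3, and within the list for Prl3d1, Prl4a1 and Prl3b1, the last with a difference of -0.41. This order is not particular to these genes. The cardiomyocyte marker Myl3 had it too, with 7.93, 8.05 and 8.21, while Tnnc1 did not. How many of all entries had it was not counted. The called marker Ascl2 had another order, with -0.07, 0.12 and -0.02 in null pools 1, 2 and 3. Prl3d1 made up most of the sum in null pool 3. Without null pool 3 the Lgals3 difference was 3.52.

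Of 10 measured visceral endoderm and liver markers 3 rose, the retinol carrier Rbp4 by 2.37 (SE 0.19), the transcription factor Hnf4a by 2.27 (SE 0.25) and alpha-fetoprotein Afp by 3.56 (SE 0.67), with sums of 2.38 to 3.13 against 5.20 to 6.66, and Alb was above background on 0 arrays. Of 10 pharyngeal endoderm markers 2 rose and 1 fell. The epithelial keratins Krt19 and Krt18 rose by 3.03 (SE 0.19) and 1.09 (SE 0.16), and the transcription factor Nkx2-1 fell by 0.79 (SE 0.20). The sums were 47.3 to 50.4 against 126 to 143, and the keratins Krt18, Krt19 and Krt8 made up most of them. Epcam, Cdh1, Foxa1, Pax9, Pax1 and Sox2 were not called, and the list median difference was 0.25. Of 6 measured stratified epithelium markers 1 fell, the basal keratin Krt5 by 1.56 (SE 0.18), and Dsc3 and Dsg3 were above background on 0 arrays. Of 5 measured notochord markers 1 rose, the brachyury gene T by 2.57 (SE 0.64). T was well above background on at most 4 of the 6 arrays and read -8.84, -6.16 and -7.46 in wild-type pools, so its wild-type level is partly a bound, and Noto was above background on 0 arrays. The notochord sums of 0.96 to 1.42 and 1.07 to 1.28 overlapped. Of 8 endothelial and 7 erythroid markers 0 were called, with sums of 13.3 to 14.9 against 15.6 to 18.8 and of 241 to 504 against 660 to 974. The part of these cells in the Lgals3 and Lgals3bp differences was not tested.

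Galectin binding depends on the sugars that other enzymes build, and this list was 29 genes of N-glycan branching, galactose and lactosamine addition and capping, all measured. Of them 2 rose and 0 fell, a share of 6.90% beside the 10.5% of all entries. Both encode sialyltransferases that cap galactose. St3gal1 read 2.07 and 2.17 in wild-type pools 1 and 2, less than either in wild-type pool 3, and 2.67, 3.17 and 3.04 in the null pools, a difference of 0.88 (SE 0.18, adjusted p = 0.0258 in limma). St3gal6 differed by 0.67 (SE 0.16, adjusted p = 0.0411). Neither pair of groups overlapped. The branching enzyme Mgat5, which makes the preferred ligands of galectin-3 and was named after its values were seen, read between -5.58 and -4.77 over all pools and did not pass (difference 0.37, SE 0.21). The list median was 0.0033. With quantile normalization or median scaling 1 gene of the list was called higher and 1 lower, and St3gal6 kept its call in 2 of 15 alternatives. With any 1 pool left out the count was 0, or 1 without null pool 1, and it was 0 with the slide as a block.

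Of 29 measured surface and matrix glycoproteins known to bind galectins, 3 rose and 1 fell, 13.8% beside the 10.5% of all entries. The collagen-binding integrin subunit Itga1 rose by 1.03 (SE 0.16, adjusted p = 0.00991 in limma), from between -2.02 and -1.71 to between -0.95 and -0.76. Slc3a2, the CD98 heavy chain that binds galectin-3 and carries amino acid transporters, rose by 1.04 (SE 0.21, adjusted p = 0.0225), and the laminin chain Lamb1 by 0.72 (SE 0.17, adjusted p = 0.0416). Thy1, a surface glycoprotein of neurons and thymocytes, read -1.38, -1.45 and -1.22 in wild-type and -2.74, -3.15 and -2.96 in null pools and fell by 1.60 (SE 0.17, adjusted p = 0.00258). The lysosomal glycoproteins Lamp1 and Lamp2, classic galectin-3 ligands also named after their values were seen, differed by 0.20 (SE 0.15) and 0.69 (SE 0.23) and did not pass. The list median was 0.39. The count of 4 became 2 without wild-type pool 1, wild-type pool 2 or null pool 1, 1 without null pool 2, and 1 with the slide as a block, where Thy1 alone passed.

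Of 17 measured intracellular partners, 0 rose and 0 fell by limma's adjusted p, where 10.5% of all entries were called. The list includes genes of autophagy, a process that clears vesicles marked by galectins, and the Ras proteins that galectins anchor. Of the 17, 2 had an unadjusted p under 0.05. These were Hras (-0.61, SE 0.23, adjusted p = 0.146) and Gemin4 (-0.40, SE 0.16, adjusted p = 0.158). Their list median was -0.26. Of the family's relatives outside the 9 genes, the galectin-related Lgalsl and the lens protein gene Grifin were measured and differed by 0.15 (SE 0.18) and 0.05 (SE 0.25), neither passing. Their unscaled signal ran the other way, with Lgalsl at 1235 to 1559 in wild-type and 1047 to 1135 in null pools without overlap, and Grifin at 26.6 to 34.1 and 18.7 to 29.6.

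**Figure D4:**
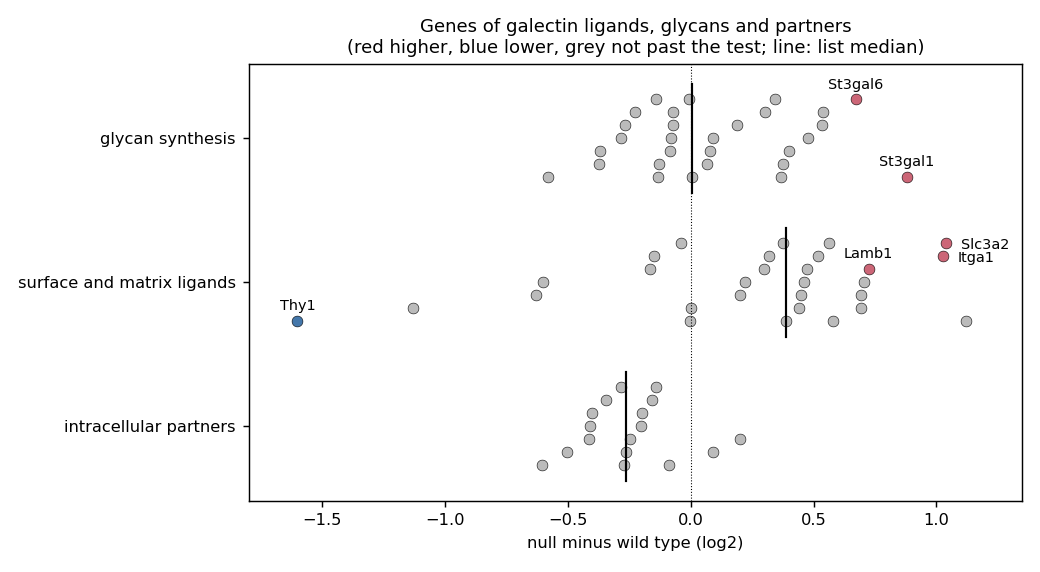
Null minus wild-type difference (x axis, log2 units) of each measured gene in the lists of glycan synthesis (29 genes), surface and matrix ligands (29) and intracellular partners (17), with called genes in red (higher) or blue (lower), others in grey and the list median as a line. The medians are 0.0033, 0.39 and -0.26, and the 6 named genes are those that passed the test.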

How the data were processed

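Processed signal intensity was taken from the deposited scanner files of 6 arrays, made with Agilent Feature Extraction 10.7.3.1 on design 026655 per the file headers, background-subtracted and not scaled between arrays. A second table holds log2 values deposited by the authors, with its making not stated, and these correlated at 0.999 or more with the log2 scanner signal on every array across probes, and served as an alternative.

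Here log2 signal minus the array's 75th percentile was used, without outlier spots. Probes well above background on at least 3 arrays were kept (26848). Symbols came from a RefSeq gene table (GRCm38.p6) through the accession, which matched 26424 of all 39429 non-control probes. Of the 21800 entries tested, 15233 had a symbol. The kept probe with the highest mean over all 6 arrays stood for a gene. Null and wild-type pools were fitted with limma 3.58.1 (R 4.3.3), two-sided, and a call needed p under 0.05 after Benjamini-Hochberg adjustment across 21800 entries. Probes that stand for no gene were fitted over all kept probes. Gcm1 was fitted without null pool 1, an outlier spot. SE is the moderated standard error. The fit was also run on simulated arrays with independent normal errors, drawn from limma's own variance prior, and a fixed shift in some entries. These held no slide, litter or probe-choice effects, so that run cannot show how the fit handles them. Genes named are all members, the called genes of each ligand, glycan and partner list (or the 2 with the smallest p), and in marker lists up to 2 called genes with the smallest p and those not above background where fewer than 4. Afp and Nkx2-1, named to complete their counts, and other genes outside this rule were chosen after their values were seen. For the megakaryocyte list 1 of the 2 genes under this rule is not reported here. Members, lists and tests were chosen with earlier results of these data known. The 3 pools per group limit the precision. Alternatives were other scalings, background correction, filters, probe rule, the slide as a block, the authors' table and leaving out each pool.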

Additional observations from a re-analysis of the deposited data

How the results depend on the processing

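Lgals3 and Lgals8 kept their direction and their side of the threshold under all 15 alternatives. The count of called family members, 2 (Lgals3 and Lgals3bp), was 1 with the mean of a gene's probes, 1 with the pool number, which is also the slide, as a replicate block and 1 with no scaling between arrays, the last an alternative chosen after seeing the data. It ran from 1 to 3 with each pool left out, being 1 without wild-type pool 2 or null pool 2. The glycan count, 2 higher and 0 lower, was 1 higher and 1 lower with quantile normalization and with median scaling, 1 with normexp or the authors' table, 0 with no filter on dim probes, 0 with the replicate block, 0 with no scaling and 0 to 1 with a pool left out. The ligand count, 4, was 2 with no filter, 8 with the mean of probes, 1 with the replicate block, 1 with no scaling and 1 to 4 with a pool left out, and the partner count, 0, was 1 with the mean of probes. The cause of these moves was not tested. With no scaling Lgals1 turned to -0.25 and Lgals4 to -0.0010, where the median over all entries was -0.45. That median was -0.11 with median scaling and 0.16 with normexp. The share of all entries called ran from 3.19% (no filter) to 12.4% (all 6 arrays above background), and was 3.40% with the replicate block. Median scaling gave 1105 higher and 1399 lower, against 1448 and 831. Pools of the same number did not deviate from their group means alike (correlations across genes of -0.41, -0.09 and -0.41). Signals close to local background limit Lgals9, Lgals4 and the wild-type value of Lgals3.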

Other observations

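Among 13556 named genes well above background on all 6 arrays, those whose values followed a family member most closely were listed by Pearson's r over the 6 arrays, a description that mixes both groups and carries no p. For Lgals3 they were Dennd4b (0.996), Nmur2 (0.996) and Phka2 (0.995), with null minus wild-type differences of 0.73, 1.29 and 0.35. For Lgals3bp they were Zfp438 (0.998), Sars (0.998) and Sdc2 (0.997). For Lgals8 they were Myl3, a cardiac myosin light chain (0.995), Lancl1 (0.991) and Erp29 (0.990), for Lgals4 Scnm1 (0.992), Fggy (0.986) and Abraxas1 (0.984), for Lgals9 Cep44 (0.988), Trappc9 (0.981) and Zmynd8 (0.980), and for Lgals1 C1qtnf1 (0.985), Trmt112 (0.981) and Foxi3 (0.980). With so many genes and 6 arrays, values this high are found for every family member listed.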
